A study of Mus musculus with 6 samples.

Results

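R-spondin ligands, their Lgr receptors, the ubiquitin ligases Rnf43 and Znrf3 and the Wnt co-receptors Lrp5 and Lrp6 were examined in mouse osteosarcoma lines and cultured osteoblasts. The set was fixed by name as Rspo1, Rspo2, Rspo3, Lgr4, Lgr5, Lgr6, Rnf43, Znrf3, Lrp5 and Lrp6. All 10 genes were found among the 19938 genes with a single symbol on the Affymetrix Mouse Gene ST arrays, each with 1 probe set. The 3 osteosarcoma lines, OS_493H, OS_494H and OS_716H, were grown from primary tumours of C57Bl6 mice with Osx-Cre and fl/fl alleles of both p53 and Rb. In these mice Cre is driven by the promoter of Osterix (Sp7), a transcription factor of the osteoblast lineage. OS_493H came from the hip of a female, OS_494H from the hip of a male and OS_716H from the tibia of a female, by their labels, with recorded ages of 188, 190 and 226, in a unit the labels leave out. The 3 osteoblast samples were cultures of KUSA4b10, a mouse bone marrow stromal line with the strain given as C57Bl6, kept for 21 days after confluence in medium with 50 ug/ml ascorbate. All 3 are therefore 1 cell line, and their titles number them as rep 1 to 3 with the tags Ex1, Ex2 and Ex3, which the labels do not explain. Nothing settles whether they were grown independently, so the p-values may in part rest on technical spread. The labels describe ascorbate and confluence for KUSA4b10 only, so effects of tumour origin, growth state and differentiation cannot be told apart.

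Canonical Wnt ligands act through a Frizzled receptor together with Lrp5 or Lrp6, and the engaged co-receptor protects beta-catenin from degradation. Znrf3 and Rnf43 are membrane ligases that remove Frizzled and Lrp6 from the cell surface. R-spondins bind an Lgr receptor and one of these ligases at once, which clears the ligase and leaves more Wnt receptor on the cell. In bone, loss of Lrp5 causes low bone mass and its gain-of-function alleles cause high bone mass, and R-spondins are known to promote osteoblast differentiation.

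Values are log2 expression, 1 per gene and array, with differences given as osteosarcoma minus osteoblast. Rb1, targeted in the mouse model, stood at 9.26, 9.70 and 9.87 in lines OS_493H, OS_494H and OS_716H against 10.66 to 10.68 in the cultures (log2 difference -1.05 ± 0.15 SE, limma adjusted p = 0.00427). The array labelled OS_716H went against its label as a female, since the Y-linked Eif2s3y, Uty and Kdm5d were 10.11, 10.06 and 8.92 there and 9.96, 9.90 and 8.85 in the male OS_494H. The same genes were 4.08, 5.11 and 5.42 in OS_493H, and Xist was 12.62 in OS_493H but 5.31 and 5.50 in the other lines. In the cultures neither was high, with Xist at 5.57 to 5.79 and the Y-linked genes at 4.10 to 5.65. The groups therefore also differ in sex-linked expression, which cannot be told apart from their other differences. Culture 2 stood apart from cultures 1 and 3, with 150 and 186 genes differing by more than 1 log2 unit, against 3 genes between cultures 1 and 3. Several cell type markers moved with the groups. Of all genes, 13.2% passed the test as higher and 11.4% as lower in the lines. Fat cell markers were lower in the lines for 6 of 7 genes, and their mean level was 7.17 to 7.52 in the lines against 10.49 to 11.22 in the cultures. All 4 markers of dividing cells were higher in the lines (mean level 11.36 to 11.76 against 8.50 to 9.70). Of 5 osteoblast markers Ibsp and Dmp1 fell (-6.16 and -4.36). Sp7 and Alpl differed by -1.2 and -1.39 without passing (limma adjusted p = 0.141 and 0.224). Col1a1 was 12.81 to 13.55 in the lines against 12.98 to 13.77 in the cultures. The mean level of the list was 8.80 to 9.95 against 11.54 to 12.35, a gap that rests largely on Ibsp and Dmp1. No gene of the macrophage and blood list (6 genes), the endothelial list (5 genes) or the epithelial and crypt list (7 genes) passed the test, and their mean levels lay between 6.38 and 7.08 in every sample. Of 5 cartilage markers Col10a1 fell, of 4 osteoclast markers Acp5 rose and Ctsk fell, and of 4 muscle markers Acta1 rose. Leaving out culture 1 ended the calls of Ctsk (adjusted p = 0.053) and Acta1 (0.0558), and leaving out culture 3 ended that of Acta1 (0.0677). The part of these markers in the results below was not tested. In bulk samples fewer cells of a type and less RNA per cell cannot be told apart.

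The family was divided, with related receptors on opposite sides. Of the 10 genes, Lgr4 and Lrp6 were higher in the osteosarcoma lines, while Rspo3, Lgr5 and Lrp5 were lower (limma, adjusted p under 0.05 by Benjamini-Hochberg across the 19938 genes). Rspo1, Rspo2, Lgr6, Rnf43 and Znrf3 did not pass. Over all genes 24.6% were called, 13.2% as higher and 11.4% as lower, beside 2 higher and 3 lower among the 10. A set of 10 genes is too small to read a difference from these shares. The counts fell to 1 higher without culture 2 or culture 3, and to 1 lower without culture 1 or OS_716H. The median difference was -0.73 over the 10 genes and -0.02 over all genes. The lines and cultures did not overlap for 6 of the 10, 4 lower and 2 higher, against 41.5% of all genes (21% lower and 20.5% higher). Rspo3, Lgr5 and Lrp5 were both called and changed at least 2-fold, as were 6.88% of all genes. For a single gene an exact permutation test of 3 samples against 3 cannot give a two-sided p below 0.1, the value that each of those 6 genes reached.

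**Figure D1:**
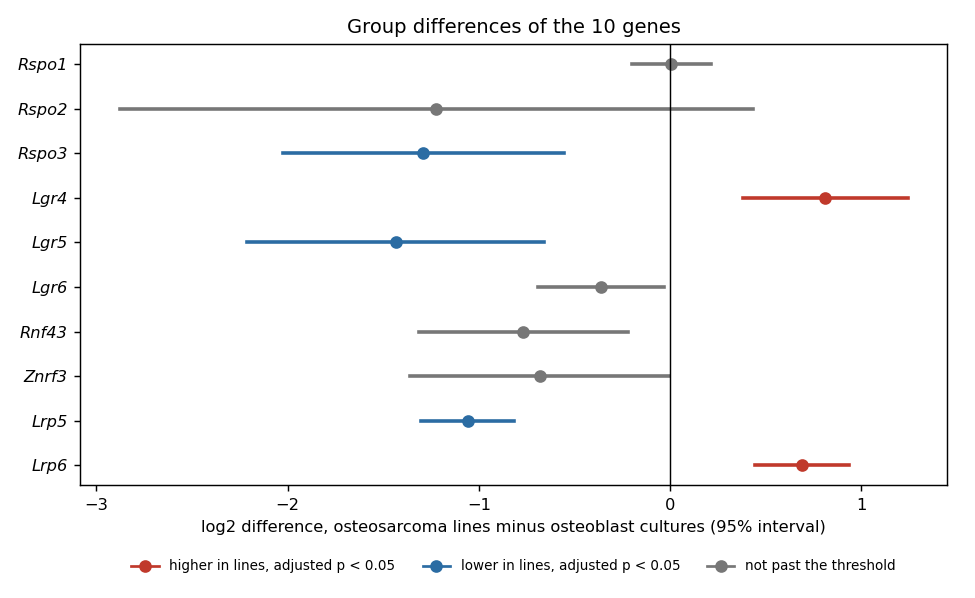
Log2 difference between the 3 osteosarcoma lines and the 3 osteoblast cultures for each of the 10 genes (points), with its unadjusted 95% interval from limma (bars). Lgr4 and Lrp6 lie to the right of 0 and Rspo3, Lgr5 and Lrp5 to the left, and the widest interval is that of Rspo2, from -2.88 to 0.43.

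Among the ligands, Rspo3 fell. Rspo3, a secreted R-spondin of mesenchymal tissue, stood at 9.17, 8.25 and 8.05 in lines OS_493H, OS_494H and OS_716H, against 10.01, 9.44 and 9.90 in cultures 1, 2 and 3. Every line lay below every culture, with OS_493H closest to them. The group means were 8.49 ± 0.60 and 9.78 ± 0.30 (SD, n = 3 each), differing by -1.29 ± 0.31 log2 units (SE, limma adjusted p = 0.0245) or a 2.45-fold lower level (95% interval 1.47 to 4.07, unadjusted as all intervals here). The call was lost without culture 1 (adjusted p = 0.0946), culture 3 (0.0892), OS_494H (0.0533) or OS_716H (0.057), with differences of -1.63 to -1.07 over all alternatives.

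Rspo2 differed more among the lines than between the groups. This R-spondin, required for limb and lung development, stood at 11.22, 9.25 and 8.21 in lines OS_493H, OS_494H and OS_716H, against 10.86, 10.73 and 10.76 in the 3 cultures. OS_493H was above all cultures and the other lines were below all of them. The spread over the lines (SD 1.53, n = 3) exceeded that of 99.7% of all genes, while the spread over the cultures (SD 0.07, n = 3) exceeded that of 33.8%. The mean difference of -1.22 ± 0.69 (SE) did not pass (limma adjusted p = 0.267), and its 95% interval of -2.88 to 0.43 includes a large fall as well as a small rise. Without OS_493H the difference was -2.05 and passed (adjusted p = 0.00944, over a range of 0.00944 to 0.52 in all alternatives).

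For Rspo1 no difference was detected. It was 7.38, 7.33 and 7.38 in the 3 lines against 7.21, 7.46 and 7.39 in the 3 cultures, and the groups overlapped. The log2 difference was 0.01 ± 0.09 (SE, limma adjusted p = 0.969), with a 95% interval of -0.20 to 0.21, and its sign changed with the scaling of the arrays. These values lie below 7.97, the median of all values of named probe sets, and without a detection call it is not known whether the probe set measured any transcript. The same limit holds for other values below that level, such as those of Rnf43, Dkk1, Sost, Nkd2 and Lef1 in the lines. Rnf43 in cultures 1 and 3 and Dkk1 in cultures 2 and 3 were also below it. The sizes of the differences of these genes are therefore uncertain. Rspo4, the remaining R-spondin, was 6.46 to 6.73 in the lines against 6.72 to 6.84 in the cultures and did not pass (-0.16, adjusted p = 0.292).

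**Figure D2:**
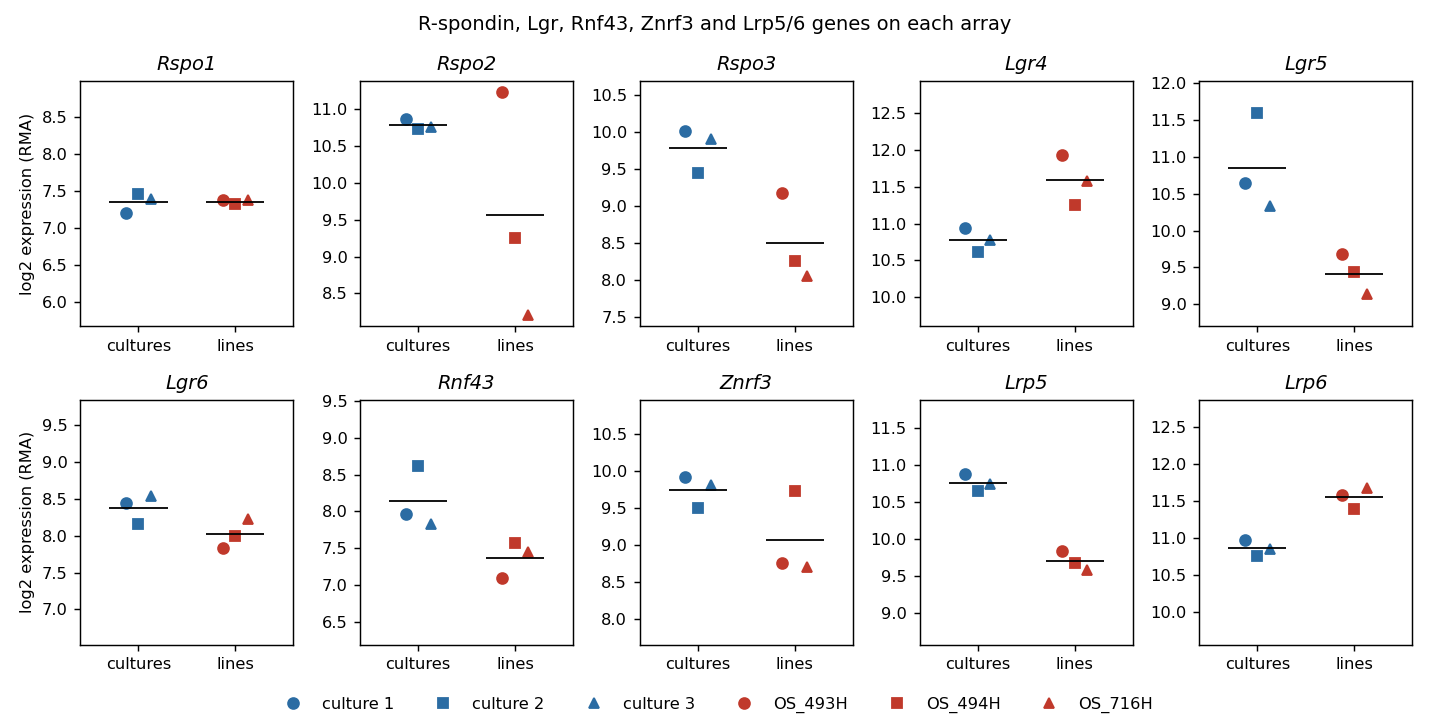
Log2 expression of each gene on every array, with cultures in blue, osteosarcoma lines in red, a marker shape for each sample and a line at each group mean. Each panel spans the same number of log2 units around its own centre, so the wide scatter of Rspo2 over the lines and the tight groups of Lrp5 and Lrp6 can be compared.

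The receptors Lgr4 and Lgr5 moved in opposite directions. Lgr4, the most broadly expressed of the R-spondin receptors, stood at 11.93, 11.25 and 11.58 in lines OS_493H, OS_494H and OS_716H, against 10.94, 10.61 and 10.78 in cultures 1, 2 and 3. Every line lay above every culture. The means were 11.59 ± 0.34 and 10.78 ± 0.16 (SD, n = 3 each), differing by 0.81 ± 0.18 log2 units (SE, limma adjusted p = 0.0192), or 1.75-fold higher (95% interval 1.30 to 2.36). The call was lost without culture 2 (adjusted p = 0.0649) or culture 3 (0.069), and the difference stayed between 0.64 and 0.98 in all alternatives.

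Lgr4 is also the called gene for which a promoter sequence was at hand. RefSeq promoters, of build GRCm38.p6, were matched for 4 of the 10 genes, Rspo1, Lgr4, Lgr6 and Rnf43. The bases directly before the annotated start of Lgr4 are shown because the gene rose, with the CCAAT pentamer in capitals, a box bound by the factor NF-Y in many promoters. The window is chr2:109917397-109917646 on the plus strand.
Lgr4: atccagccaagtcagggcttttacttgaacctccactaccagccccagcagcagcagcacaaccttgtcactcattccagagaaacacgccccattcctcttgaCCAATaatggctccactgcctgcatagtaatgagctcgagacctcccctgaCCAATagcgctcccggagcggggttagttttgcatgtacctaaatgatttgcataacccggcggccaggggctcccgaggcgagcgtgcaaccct
CCAAT stood at positions -146 and -95, counted from -1 at the base before the start. Either strand was searched, over 250 bases before and 50 after each start, and 37.4% of all 32851 promoter windows held CCAAT at least once and 11.7% held it 2 or more times. The windows of Rspo1, Lgr6 and Rnf43 held none. This search was chosen after the sequence was seen, and a match describes letters, not binding.

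Lgr5 fell. Lgr5, a stem cell marker in gut and hair follicle and a target of beta-catenin, stood at 9.68, 9.43 and 9.14 in lines OS_493H, OS_494H and OS_716H, against 10.64, 11.59 and 10.33 in cultures 1, 2 and 3. Every line lay below every culture, and culture 2 was 1.10 above the mean of the other cultures. The means were 9.42 ± 0.27 and 10.85 ± 0.65 (SD, n = 3 each), differing by -1.43 ± 0.32 log2 units (SE, limma adjusted p = 0.0203), or 2.70-fold lower (95% interval 1.58 to 4.63). The difference was -1.07 without culture 2 (adjusted p = 0.0156), and the call was lost without culture 1 (0.0562) or OS_716H (0.0559). Within each array the value of Lgr4 minus that of Lgr5, whose zero has no meaning across probe sets, was 2.25, 1.81 and 2.44 in the lines against 0.30, -0.98 and 0.45 in the cultures, a shift of 2.24 log2 units.

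Lgr6, the third R-spondin receptor, was 7.84, 7.99 and 8.22 in the 3 lines against 8.44, 8.16 and 8.53 in the 3 cultures. OS_716H was above culture 2, so the groups overlapped. The log2 difference of -0.36 ± 0.14 (SE) did not pass (limma adjusted p = 0.11), with a 95% interval of -0.69 to -0.03. It passed with array weights (0.0242, over a range of 0.0242 to 0.298 in all alternatives).

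Neither of the ligases passed, though both had lower means in the lines. Rnf43, a negative feedback gene of beta-catenin in many epithelia, stood at 7.09, 7.58 and 7.45 in lines OS_493H, OS_494H and OS_716H, against 7.97, 8.62 and 7.83 in cultures 1, 2 and 3. Every line lay below every culture. The log2 difference of -0.77 ± 0.23 (SE) missed the threshold narrowly (limma adjusted p = 0.0527, 95% interval -1.31 to -0.22). It passed after quantile normalisation (0.0389), median centring (0.0362), a filter to brighter genes (0.0387), an intensity trend (0.0492) and array weights (0.0341), and reached 0.144 without OS_493H. The promoter before the first of its 2 annotated starts, chr11:87662837-87663086 on the plus strand, is shown since Rnf43 is known as a beta-catenin target.
Rnf43: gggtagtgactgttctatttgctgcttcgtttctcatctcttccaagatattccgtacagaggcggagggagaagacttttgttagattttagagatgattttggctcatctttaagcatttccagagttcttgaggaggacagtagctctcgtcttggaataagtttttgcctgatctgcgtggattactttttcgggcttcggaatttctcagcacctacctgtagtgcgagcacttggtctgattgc
No capitals appear, since neither CCAAT nor a TCF/LEF heptamer (CTTTG followed by AA, AT, TA or TT, either strand, with no overlap with CCAAT) was found in it. The heptamers were in 16.9% of all promoter windows and in none of the 5 windows of Rspo1, Lgr4, Lgr6 and Rnf43. The windows of Rnf43 had 46.7% and 44.3% G and C, that of Lgr4 58.3%, and those of Rspo1 and Lgr6 69.0% and 67.7%, against a median of 52.7% over all windows.

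Znrf3, the second ligase and likewise a feedback inhibitor of Wnt receptors, stood at 8.76, 9.73 and 8.70 in lines OS_493H, OS_494H and OS_716H, against 9.92, 9.50 and 9.81 in cultures 1, 2 and 3. OS_494H lay within the range of the cultures and the other lines lay below it. The spread over the lines (SD 0.58, n = 3) exceeded that of 95.9% of all genes. The log2 difference was -0.68 ± 0.28 (SE, limma adjusted p = 0.138, 95% interval -1.36 to -0.0042). It was -1.02 and passed without OS_494H (adjusted p = 0.00415) and passed with array weights (0.0214), over a range of 0.00415 to 0.328 in all alternatives.

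The co-receptors had the lowest adjusted p-values of the 10 genes, with Lrp5 lower and Lrp6 higher in the lines. Lrp5 stood at 9.84, 9.67 and 9.58 in lines OS_493H, OS_494H and OS_716H, against 10.88, 10.64 and 10.74 in cultures 1, 2 and 3. The 3 lines lay within 0.26 of each other and all below the cultures. The means were 9.70 ± 0.13 and 10.76 ± 0.12 (SD, n = 3 each), differing by -1.06 ± 0.10 log2 units (SE, limma adjusted p = 0.00119), or 2.08-fold lower (95% interval 1.76 to 2.47).

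Lrp6, which with Lrp5 forms the pair of Wnt co-receptors, stood at 11.58, 11.39 and 11.68 in lines OS_493H, OS_494H and OS_716H, against 10.97, 10.75 and 10.85 in cultures 1, 2 and 3. Every line lay above every culture. The means were 11.55 ± 0.14 and 10.86 ± 0.11 (SD, n = 3 each), differing by 0.69 ± 0.10 log2 units (SE, limma adjusted p = 0.00443), or 1.61-fold higher (95% interval 1.36 to 1.91). Both co-receptors kept their calls when any 1 array was left out (adjusted p up to 0.00915 for Lrp5 and 0.0249 for Lrp6). Within each array Lrp6 minus Lrp5 was 1.74, 1.72 and 2.10 in the lines against 0.10, 0.11 and 0.11 in the cultures, a shift of 1.75 log2 units. The zero of this quantity has no meaning either, since it sets 1 probe set against another.

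The lines did not share 1 profile over the 10 genes. Set against the mean of the cultures, OS_493H was 0.44 higher for Rspo2, while OS_494H and OS_716H were lower by -1.53 and -2.57. For Rspo3 the same differences were -0.61, -1.53 and -1.73. OS_493H had the highest value of the 3 lines for 6 of the genes, OS_494H for 2 and OS_716H for 2. The same shares over all genes were not computed, so these counts are a description only. For Lrp5 the 3 lines differed from the culture mean by -0.91, -1.08 and -1.18, and for Lrp6 by 0.72, 0.53 and 0.82. The SD over the lines was larger than that over the cultures for 7 of the 10 genes and for 65.8% of all genes.

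**Figure D3:**
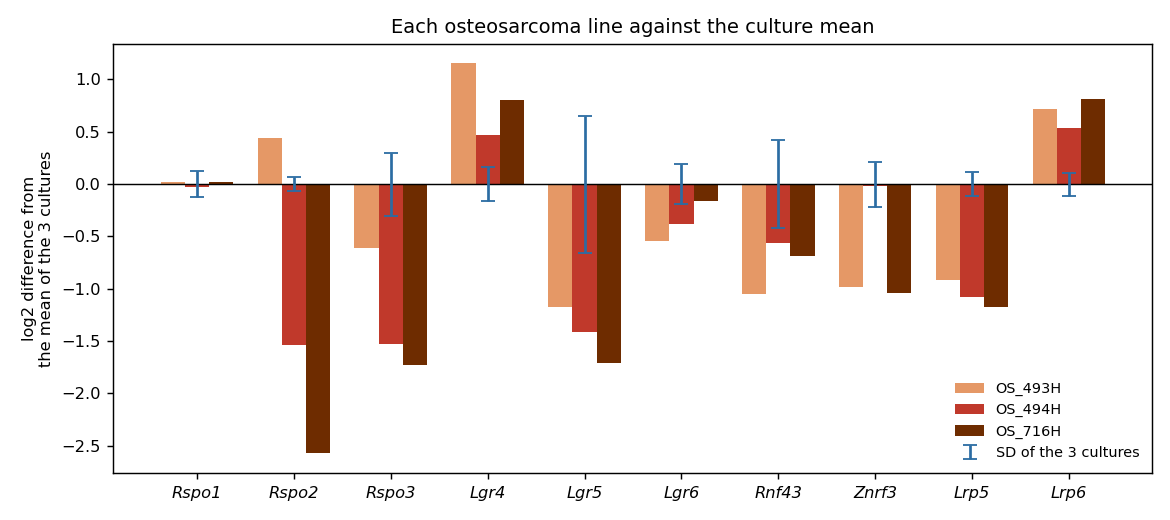
Difference of each osteosarcoma line from the mean of the 3 cultures, in log2 units, for the 10 genes (bars), with the SD of the 3 cultures around 0 (blue). Rspo2 runs from 0.44 in OS_493H to -2.57 in OS_716H, whereas the bars of Lrp5 and Lrp6 are of similar length in all 3 lines.

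For the 3 genes with the widest range over the arrays, Rspo2, Lgr5 and Rspo3, the other named genes with the most similar values were listed, by the root mean square difference after each gene was centred on its own mean over the 6 arrays. The search covered 16950 genes and is a description, with no test. Nearest to Rspo2 were Mx2 (0.19 log2 units), Oasl2 (0.22) and Sp140 (0.24), of which Mx2 and Oasl2 are known as interferon-induced genes. Mx2 was 8.09, 6.39 and 5.72 in the lines against 7.79 to 8.04 in the cultures, and Oasl2 was 11.70, 10.09 and 9.03 against 11.15 to 11.83. Like Rspo2, these genes were near or within the level of the cultures in OS_493H and lowest in OS_716H, and none of the 3 passed the group test (adjusted p = 0.174, 0.212 and 0.292).

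Nearest to Lgr5 were the growth factor gene Pdgfa (0.17), the beta-catenin partner Lef1 (0.20) and the sphingomyelin synthase Sgms2 (0.20). Lef1 was 7.55, 7.07 and 7.03 in the lines against 8.48, 8.97 and 8.33 in cultures 1, 2 and 3, so that culture 2 was the highest array for Lef1 as for Lgr5. Nearest to Rspo3 were Lgals3bp (0.10), which encodes a secreted galectin-binding glycoprotein, Xlr (0.12) and Agmo (0.14). Lgals3bp was 12.03, 11.23 and 11.17 in the lines against 12.43 to 12.81 in the cultures. Xlr belongs to a family of near-identical copies, so its probe set may read more than 1 of them.

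**Figure D4:**
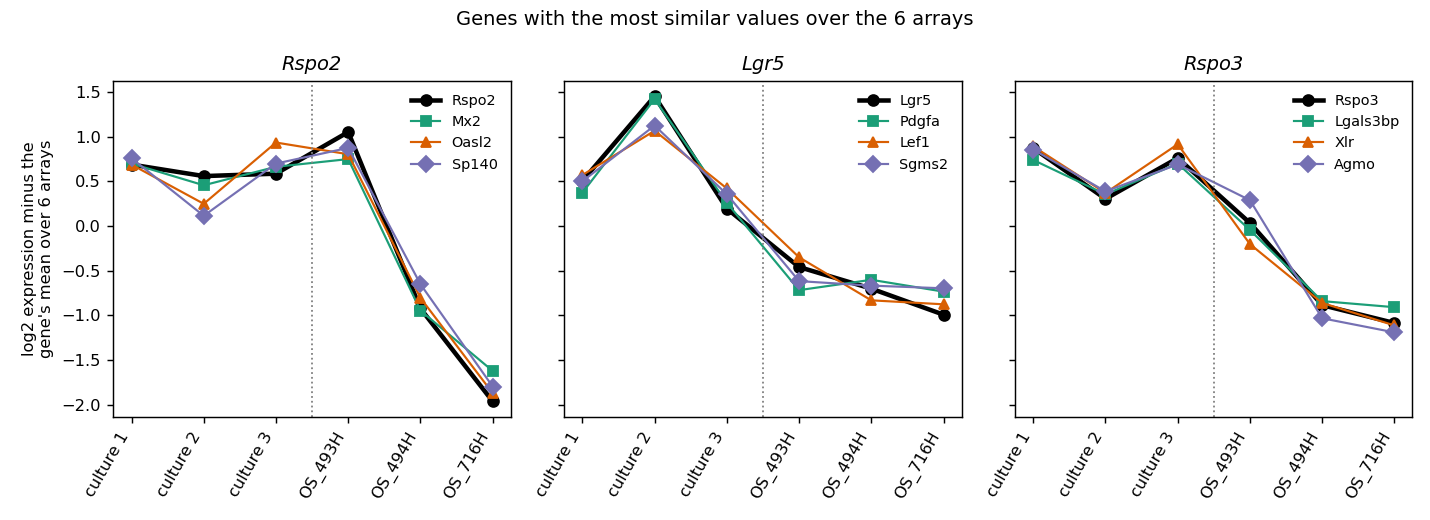
Log2 expression minus each gene's own mean over the 6 arrays for Rspo2, Lgr5 and Rspo3 (black) and for the 3 genes most similar to each (colours), with the cultures left of the dotted line and the osteosarcoma lines right of it. The Rspo2 group stays high in OS_493H and falls in OS_494H and OS_716H, and the Lgr5 group peaks in culture 2.

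Of 65 measured genes listed as pathway partners or as relatives of these members, 8 rose, 12 fell and 45 did not pass. The test was limma at adjusted p under 0.05, with 13.2% of all genes higher and 11.4% lower. The median difference of the list was -0.05. Without culture 1 the counts were 3 and 6, without culture 2 they were 5 and 9, and without culture 3 they were 3 and 9. The calls of 2 genes that rose (Grk6 and Pip4k2a) and 6 that fell (Lrp10, Pip5k1b, Gpc1, Sdc1, Sdc2 and Tshr) held in all 6 fits that left out 1 array. The share of all genes whose calls held in this way was not computed, so no imbalance is read from these counts.

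Of 11 genes listed as Lrp5 and Lrp6 inhibitors or their co-receptors, none passed as higher, while Dkk1 and Sost fell. Of all genes, 13.2% rose and 11.4% fell. The median difference of the list was -0.16, and Apcdd1 and Dkk2 were higher by 0.66 and 0.62 without passing. Dkk1, a secreted inhibitor that binds both co-receptors, was 6.89, 6.77 and 7.05 in the lines against 7.99, 7.79 and 7.31 in the cultures, without overlap. Sost, the sclerostin gene of osteocytes, was 7.79 to 7.91 in the lines against 8.18 to 8.51 in the cultures. Their differences were -0.80 (adjusted p = 0.0201) and -0.46 (0.0194). Each call was lost without culture 1 (0.0654 for Dkk1, 0.0514 for Sost) or OS_493H (0.0591 and 0.0616), and that of Dkk1 also without culture 2 (0.0673).

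Of 9 measured relatives of Lrp5 and Lrp6, 2 rose and 3 fell, against 13.2% and 11.4% of all genes. Lrp8, a reelin receptor, rose by 1.70 (adjusted p = 0.0146), with lines at 9.76, 10.84 and 9.43 and cultures at 8.10 to 8.54. Lrp4, which presents sclerostin to the co-receptors, fell by 0.84 (0.0182), Lrp10 by 0.69 (0.00341) and Lrp3 by 0.63 (0.0183). The gene that completes the count, Lrp2, was named after its values were seen and rose by 0.40 (0.0444). Its values, 6.62 to 7.27, all lie below the median of all values, so the size of its rise is uncertain. The values of Lrp3 in the lines, 7.37 to 7.79, also lie below that median, so the size of its fall is uncertain too. The call of Lrp8 was lost without culture 1 (0.0595) or culture 3 (0.0613), for Lrp4 the same held without culture 1 (0.0713) or culture 2 (0.0623), for Lrp3 without culture 1 (0.0695) or culture 3 (0.0611), and for Lrp2 without any 1 array except OS_493H (up to 0.126).

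Of 22 genes listed as kinases and scaffolds of the Lrp6 signalling complex, 6 rose and 1 fell, against 13.2% and 11.4% of all genes. Grk6, a receptor kinase known to phosphorylate Lrp6, was 9.52 to 9.94 in the lines against 8.94 to 9.04 in the cultures (0.79, adjusted p = 0.00481). Pip4k2a, a lipid kinase gene on the list that is not an established part of the complex, rose by 0.65 (0.00417). The Lrp6-binding protein Caprin2 rose by 0.53 (0.0153), a call lost without culture 3 (0.0583). The remaining 3 were casein kinase 1 genes, Csnk1g1, Csnk1g3 and Csnk1a1, outside the rule for named genes, and rose by 0.38, 0.33 and 0.27. The other 3 casein kinase 1 genes of the list, Csnk1g2, Csnk1d and Csnk1e, differed by -0.0092, 0.06 and -0.12 and did not pass. The call of Csnk1g1 was lost without culture 1 (0.0742), and those of Csnk1g3 and Csnk1a1 without any 1 culture (up to 0.0926 and 0.109) or without OS_493H (0.0647 and 0.078). Pip5k1b, a phosphatidylinositol kinase gene, fell by 1.74 (0.00113), from 7.83 to 8.49 in the cultures to 6.45 to 6.46 in the lines, values not shown to be above background, so the size of the fall is uncertain. Beta-catenin itself (Ctnnb1), Gsk3b and Axin1 differed by -0.03, -0.19 and -0.04, none past the threshold, and were named after their values were seen.

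Of 10 heparan sulphate proteoglycans, the kind of surface protein to which R-spondins bind, none rose and 3 fell. Of all genes, 13.2% rose and 11.4% fell. Gpc1 was 9.84, 10.61 and 10.25 in the lines against 11.49 to 12.01 in the cultures (-1.43, adjusted p = 0.00556). Sdc2 was 11.42 to 11.79 against 12.52 to 12.68 (-1.04, 0.00164), and Sdc1 10.21 to 10.37 against 10.77 to 10.88 (-0.49, 0.0064). Of 6 genes of receptor turnover and sorting, Atp6ap2 and Atp6ap1, accessory subunits of the vacuolar proton pump, fell by 0.69 and 0.53 (0.0216 and 0.0299). Both calls were lost without culture 1 (0.0826 and 0.102), culture 3 (0.0812 and 0.109) or OS_493H (0.0622 and 0.0834), that of Atp6ap2 also without OS_716H (0.0554) and that of Atp6ap1 also without culture 2 (0.0528). Of 6 partners and relatives of the Lgr receptors, the thyrotropin receptor Tshr, a relative with leucine-rich repeats that is also expressed in fat cells, was 5.33 to 5.72 in the lines against 8.46 to 9.37 in the cultures (-3.28, 0.000614). The lines lie below the median of all values, where no detection call shows that a probe set measures its transcript, so the size of this fall is uncertain.

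**Figure D5:**
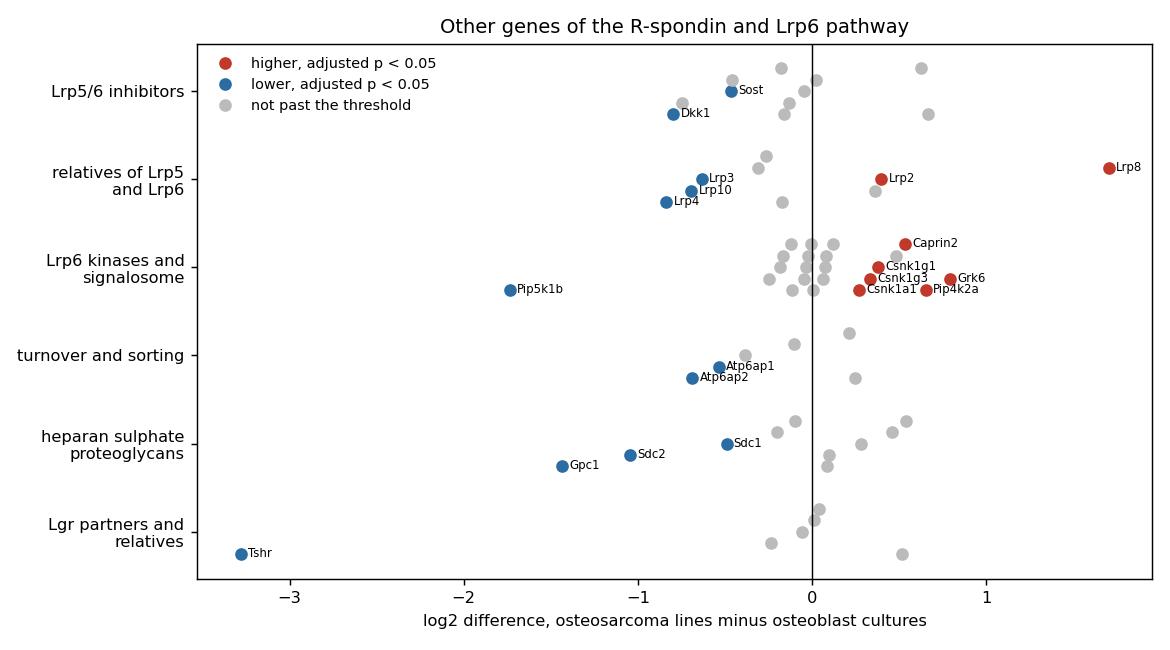
Log2 difference between osteosarcoma lines and osteoblast cultures for each measured gene of 6 subgroups of the pathway list, spread vertically only for legibility, with genes past the threshold in colour and named. The 6 genes that rose in the list of the Lrp6 signalling complex lie between 0.27 and 0.79. Tshr lies at -3.28, with lines at values not shown to be above background.

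Of 15 measured feedback and target genes of beta-catenin, none rose and 4 fell, against 13.2% and 11.4% of all genes. Nkd2, a feedback inhibitor, was 7.52, 7.53 and 7.66 in the lines against 9.47, 10.64 and 9.01 in the cultures (-2.14, adjusted p = 0.00886). The TNF receptor family gene Tnfrsf19 fell by 2.05 (0.0175), Lef1 by 1.37 (0.00494) and Dkk1 as given above. The call of Tnfrsf19 was lost without OS_493H (0.0583). Axin2, whose level is often used as a readout of beta-catenin activity, was 7.16, 7.14 and 7.48 in the lines against 7.21, 7.46 and 7.24 in the cultures, a difference of -0.04 ± 0.12 (SE) that did not pass (0.839). All 6 values are below the median of all values, so, as for Rspo1, it is not known whether the probe set measured the transcript. The same holds for Sp5, Cdx2 and Prox1, at 6.05 to 7.07 on every array. These genes were named after their values were seen, and that they did not pass says little.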

How the data were processed

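Total RNA of 6 samples was hybridised to 1 array each, after Trizol extraction and column clean-up, per the labels' protocols. The authors deposited 1 log2 expression value per probe set and array. Per the submitters' processing notes these came from RMA, with mm9 as the mouse build, and the sources used here name no software version. RMA equalises the arrays' distributions, compresses large differences and gives no detection call. The values, 3.04 to 14.88, show the log2 scale. Of 35556 probe sets, 21789 had 1 symbol in the platform annotation (1621 had several, 12146 were not listed), giving 19938 genes. Where a gene had several, the one whose mean across the 6 arrays was highest stood for it, and each of the 10 members had 1.

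Groups were compared with limma 3.58.1 in R 4.3.3 (lmFit, eBayes, two-sided), with Benjamini-Hochberg adjustment over all genes and a threshold of 0.05. On simulated arrays with these genes' means and spreads, 64% of 100 genes changed 2-fold and 84% of 100 changed 4-fold were recovered, with 4 false calls of 152. Only 200 of 19938 genes were changed there, all with a mean above the median, and each gene had 1 spread for both groups. Recovery may therefore differ in the real data, as for genes of low level such as Rspo1. The labels name no batch, and the tags Ex1 to Ex3 of the cultures, 1 culture each, are unexplained, so they could not be tested. The number of arrays, 3 a group, limits the precision.

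The 10 genes, the pathway, feedback and marker lists, the promoters and the alternatives were chosen with earlier results of these data known. All 10 members are named whatever their values, with up to 4 called genes of each subgroup by size of change, label checks, and the 3 most similar genes of the 3 members with the widest range. Some other genes are said to be outside this rule where they occur. Apcdd1, Dkk2, Axin2, Notum, Alpl, Col1a1, Csnk1g2, Csnk1d and Csnk1e were also named outside it. Alternatives were quantile normalisation, median centring, brighter genes only, an intensity trend, robust moderation, array weights, a spread for each group, the mean of probe sets, all probe sets, a 2-fold minimum, adjusted p under 0.01 and leaving out each array. Genes of the lists without a probe set of a single symbol, such as Runx2 and Mesd, were not analysed here.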

Additional observations from a re-analysis of the deposited data

How the results depend on the processing

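The directions of Rspo2, Rspo3, Lgr4, Lgr5, Lgr6, Rnf43, Znrf3, Lrp5 and Lrp6 were the same under every alternative tried, and the calls of Lrp5 and Lrp6 held under all of them except the 2-fold minimum for Lrp6. The difference of Rspo1 changed sign, to -2.2e-05 with quantile normalisation and -0.041 with median centring, and ran from -0.065 to 0.058 on leaving out 1 array. With a 2-fold minimum, 0 of the 10 genes were called higher, since the rises of Lgr4 and Lrp6 are smaller than that, and of the pathway list 1 was higher and 4 lower, of all genes 811 and 561. At adjusted p under 0.01, 1 of the 10 genes was higher and 1 lower, of the pathway list 2 and 6, of all genes 1394 and 1072. With array weights 6 of the 10 genes were lower, and the cause was not tested. On leaving out 1 array, 1 to 2 of the 10 genes were higher and 1 to 4 lower (1 higher without culture 2 or culture 3, 1 lower without culture 1 or OS_716H), of the pathway list 3 to 12 higher and 6 to 12 lower, and of all genes 1533 to 2796 higher and 1211 to 2314 lower. Fits without 1 array have fewer samples.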

Other observations

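Culture 2 separated the set in a way that the group comparison does not show. Among the 3 cultures it had the highest value for 11 of the 15 beta-catenin feedback genes (73.3%) and for 37.5% of all genes. Tnfrsf19 was 1.61, Nkd2 1.40 and Notum 0.93 above the mean of the other cultures on the log2 scale. The count includes Axin2 and Prox1, whose values are below the median of all values on every array. Of the 10 genes of the set, Lgr5, Rnf43 and Rspo1 were highest there (by 1.10, 0.72 and 0.16), and the other 7 were lowest, against 37.5% and 38.3% of all genes, among them Rspo3 (-0.51), Znrf3 (-0.36) and Lgr6 (-0.32). The same culture was highest for 4 of 5 osteoblast markers, including Sp7 (1.48) and Alpl (1.26), and for 4 of 4 markers of dividing cells (median 1.09), and lowest for 5 of 7 fat cell markers, against the same 38.3% of all genes. This is 1 culture, so no test was made.

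Dkk2 and Igfbp4, which act on the co-receptors, differed among the lines more than between the groups, and are given here after their values were seen. Dkk2, a secreted Lrp-binding protein, stood at 10.59, 8.85 and 7.92 in lines OS_493H, OS_494H and OS_716H, against 7.95, 9.34 and 8.18 in cultures 1, 2 and 3. Igfbp4, an IGF-binding protein that also binds Lrp6, was 12.77 in OS_493H and 13.22 in OS_716H but 8.95 in OS_494H, against 12.22 to 12.50 in the cultures. Neither passed the group test (limma adjusted p = 0.593 and 0.682).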
